A study of Saccharomyces cerevisiae with 4 samples.

Results

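The small-subunit processome factors are the proteins that assemble on the nascent ribosomal RNA precursor and begin to shape it into the small (40S) ribosomal subunit of budding yeast, Saccharomyces cerevisiae. The 36 genes described here were listed by name, as UTP proteins, box C/D snoRNP proteins and further factors of the 90S pre-ribosome. The rule that lists them uses no measured value, but they were chosen with earlier results of these data known. Not every UTP protein is on the list. UTP30 and FCF1, the gene of Utp24, are among the genes outside it and are described below with the other processome factors. The listed genes were 36 of the 7445 features in the deposited count table. All 36 were found there, and all 36 passed the filter on low counts, which kept 6372 features in all.

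RNA was sequenced from 2 libraries of a TRF4 deletion strain, which carries a hygromycin resistance cassette in place of the gene (trf4::HphMX4, called trf4Δ here), and 2 libraries of the wild type. Both strains were in the W303 background, and both were grown at 25 °C in YPDA, a rich medium, to exponential phase. Per the labels, ribosomal RNA was depleted from total RNA, and no selection for poly(A) tails is described. The Trf4 protein adds short poly(A) tails to nuclear RNAs as part of TRAMP, and the exosome then trims or degrades the tailed RNAs. Whether the 2 libraries of a group came from separate cultures is not stated, so p-values measure the spread between these libraries, which may be technical. Whether the deletion strain was 1 clone is not stated either.

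As background, the processome forms around the 5′ end of the ribosomal RNA precursor and the U3 snoRNA, which pairs with the precursor. Its proteins fold the 18S part, bring in the enzymes that cut and modify it, and guide the removal of the 5′ external spacer, which the nuclear exosome then degrades. The genes for these proteins belong to the yeast ribosome biogenesis regulon, whose promoters are known for the PAC and RRPE motifs, and their mRNA levels are known to follow growth rate and nutrient signals.

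The library totals ranged from 53516242 to 57964567 counts, and the labels name no batch or date of sequencing. The targeted gene, listed as PAP2 (YOL115W), had 8102 and 8468 counts in the wild type but 21 and 40 in trf4Δ, so the counts followed the genotype labels in all 4 libraries. The U3 snoRNA is encoded by SNR17A and SNR17B. SNR17A (chrXV:780107-780596) was listed at 0 in every library, and SNR17B (chrXVI:281056-281517) had 65 and 56 wild-type counts but 535 and 595 in trf4Δ. The SNR17B feature was higher in trf4Δ, by a log2 fold change of 2.99 (SE 0.22) and an adjusted p of 3.98e-05 (edgeR, quasi-likelihood F test). It is not stated how reads of the U3 copies were assigned, nor whether counting used the strand. The zero listed for SNR17A thus does not show that this RNA was missing. Of the 76-base windows of SNR17B, a length equal to that of the reads, 0.517% also occur in SNR17A, and 0 other RefSeq genes overlap SNR17B.

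All 36 processome genes were lower in trf4Δ than in the wild type. They fell to between 42.8% and 73.3% of the wild-type level, and the median of their log2 fold changes was -0.85, a 1.80-fold lower level. In edgeR's quasi-likelihood F test, with p-values adjusted by the Benjamini-Hochberg method over all 6372 features, 36 of 36 were called lower at an adjusted p under 0.05 and 0 were called higher. The adjusted p-values ran from 5.57e-05 (UTP6) to 0.00744 (IMP3). For comparison, 28.9% of all features tested were called lower and 31.3% higher, around a median change of 0.01. Among 33 processome factors outside the list, 31 were called lower, UTP30 was called higher and FCF1 was not called. Both trf4Δ libraries were below both wild-type libraries for 36 of 36 members, against 40.2% of all features tested. A change of at least 2-fold lower was found for 7 members (SOF1, UTP9, UTP6, UTP11, UTP18, RCL1 and UTP21), against 2.4% of all features. The count of 7 depended on the scaling, and was 0 with total-count scaling and 0 with cyclic loess scaling, which is abundance-dependent. UTP21, at -1.004, lay just inside that limit on the log2 scale, and UTP4 (-0.997) and RRP9 (-0.996) lay just outside it.

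As shares of the raw library totals the fall was smaller. Together the 36 genes held 1.45% and 1.40% of all counts in the wild type but 1.03% and 1.02% in trf4Δ. The groups did not overlap in this share. With libraries scaled by total count alone, 33 of the 36 members were called lower and their median change was -0.52 on the log2 scale. The median over all features tested was 0.34 under this scaling. A smaller share of all features was then called lower than the 28.9% with TMM scaling, and more features were called higher than lower. Counts are relative to the library, so less of these mRNAs per cell and more of other RNAs cannot be told apart.

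**Figure D1:**
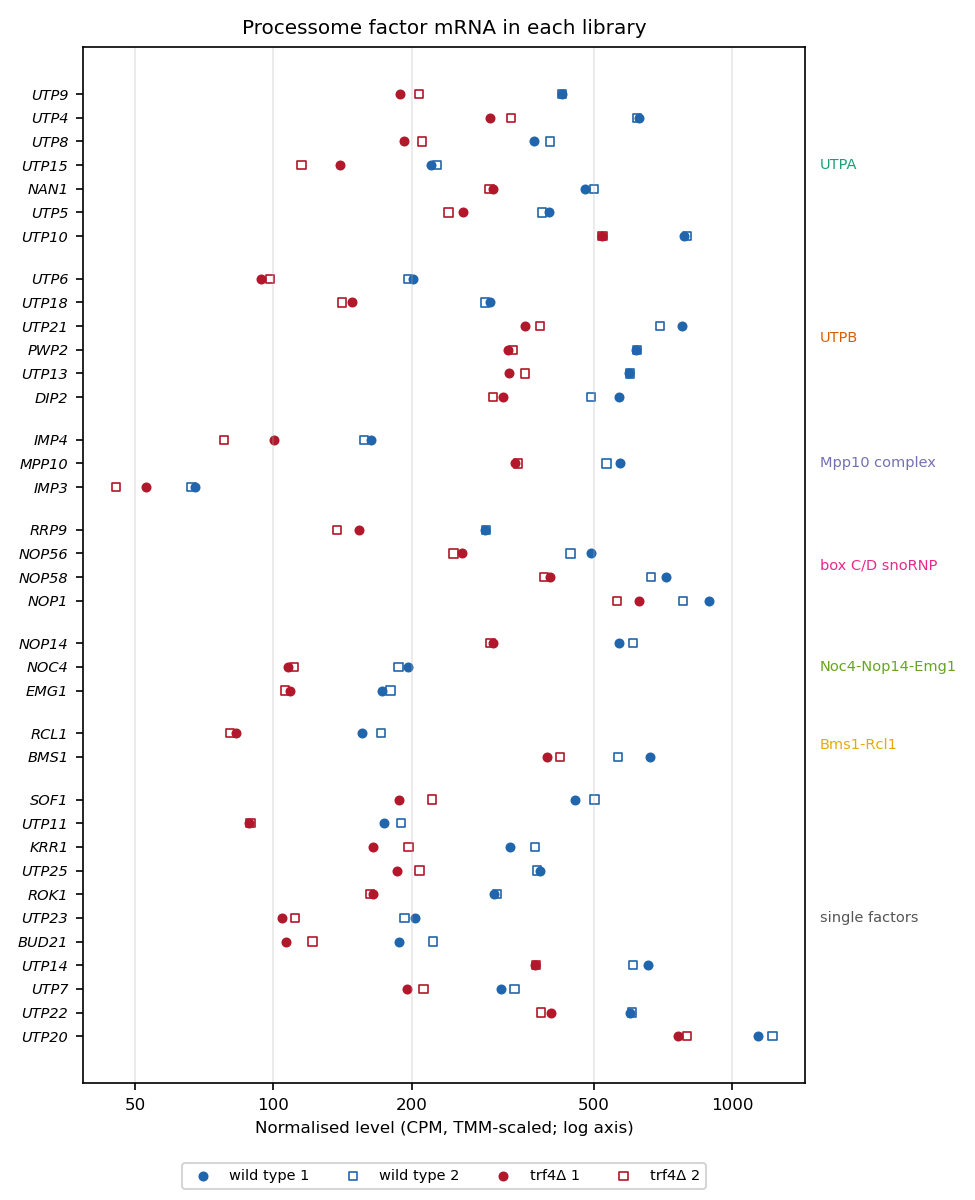
Normalised level of each of the 36 processome factor mRNAs in each of the 4 libraries, in CPM (counts scaled to the TMM-adjusted library size) on a log axis, grouped by subcomplex (blue, wild type; red, trf4Δ; filled circles, replicate 1; open squares, replicate 2). The red symbols lie to the left of the blue symbols in every row, with the lowest CPM, not adjusted for length, for IMP3 and the highest for UTP20.

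The replicates were close in comparison with this shift. Between the trf4Δ libraries the normalised levels of a member differed by a median of 0.08 on the log2 scale and by 0.36 at most (IMP4). Between the wild-type libraries the median difference was 0.07 and the largest was 0.24 (BUD21). The SE of a member's log2 fold change ranged from 0.08 to 0.13.

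The UTPA subcomplex, also called t-UTP, binds the precursor first and is linked to transcription of the ribosomal DNA. All 7 of its genes were lower, and their median change was -0.81 on the log2 scale. UTP9 (YHR196W) had 11356 and 12494 counts in trf4Δ, below the wild type at 21642 and 21852. This was the largest change of the subcomplex, at -1.10 (SE 0.09), with no overlap between the groups. UTP4 (YDR324C), which encodes a WD-repeat protein, had wild-type counts of 31936 and 31855 and trf4Δ counts of 17823 and 19815, a log2 fold change of -0.997. For UTP8 (YGR128C), whose protein is also known from nuclear tRNA export, the wild-type counts were 18833 and 20532 and the trf4Δ counts 11616 and 12661, a change of -0.93. UTP15 (YMR093W) encodes another WD-repeat protein of the subcomplex and changed by -0.81, from wild-type counts of 11243 and 11656 to trf4Δ counts of 8424 and 6923. Its trf4Δ libraries differed more than those of most members, but both stayed below the wild type.

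The other UTPA genes fell less. NAN1 (YPL126W), also called UTP17, went from 24333 and 25623 counts to 18157 and 17802, a log2 fold change of -0.71. UTP5 (YDR398W) went from 20287 and 19738 to 15604 and 14493 counts, a change of -0.65. UTP10 (YJL109C), which encodes a very large protein of helical repeats, had 39870 and 40930 wild-type counts, which became 31390 and 31370 in trf4Δ. Its change was the smallest of the subcomplex, at -0.60 (SE 0.09). The 95% interval of UTP9 ran from -1.31 to -0.89 and that of UTP10 from -0.80 to -0.40, so the intervals of these extremes of UTPA did not overlap.

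The UTPB subcomplex contacts the U3 snoRNA and the 5′ external spacer. All 6 of its genes were lower, and its median of -0.96 was the lowest of the groups, a rank that was lost under cyclic loess scaling (-0.50, against -0.62 for the single factors). UTP6 (YDR449C) had 5656 and 5907 counts in trf4Δ, below the wild type at 10263 and 10093, a change of -1.05 (SE 0.08). UTP18 (YJL069C), whose protein is known to bind the exosome cofactor Mtr4 at the external spacer, had wild-type counts of 15129 and 14833 and trf4Δ counts of 8946 and 8478, a change of -1.02 (SE 0.08). UTP21 (YLR409C) had 39623 and 35691 wild-type counts, which became 21291 and 22916 in trf4Δ, a change of -1.004. These 3 genes were each at least 2-fold lower. PWP2 (YCR057C), also known as UTP1, changed by -0.91, from 31464 and 31832 counts to 19539 and 20050. UTP13 (YLR222C) changed by -0.81, from 30374 and 30744 counts to 19686 and 21264. DIP2 (YLR129W), the gene of Utp12, changed by -0.78, from 28866 and 25268 counts to 19085 and 18125. Apart from UTP6, these proteins are built of WD-repeat propellers. The intervals of the extremes of this group, -1.25 to -0.86 for UTP6 and -1.01 to -0.54 for DIP2, overlapped.

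In the Mpp10 complex, Mpp10 is a scaffold and Imp3 and Imp4 help the U3 snoRNA to pair with the precursor. All 3 genes were lower, with a median of -0.70. IMP4 (YNL075W) had 6038 and 4687 counts in trf4Δ, below the wild type at 8296 and 8079, a change of -0.85 (SE 0.13), with the widest gap between trf4Δ libraries of any member. MPP10 (YJR002W) had wild-type counts of 29011 and 27296 and trf4Δ counts of 20230 and 20500, a change of -0.70. IMP3 (YHR148W), the shortest of the 36 genes, had 3437 and 3401 wild-type counts, which became 3175 and 2725 in trf4Δ. Its change was the smallest of all members, at -0.45 (SE 0.11). Its call was lost when libraries were scaled by total count alone, at a log2 fold change of -0.13.

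**Figure D2:**
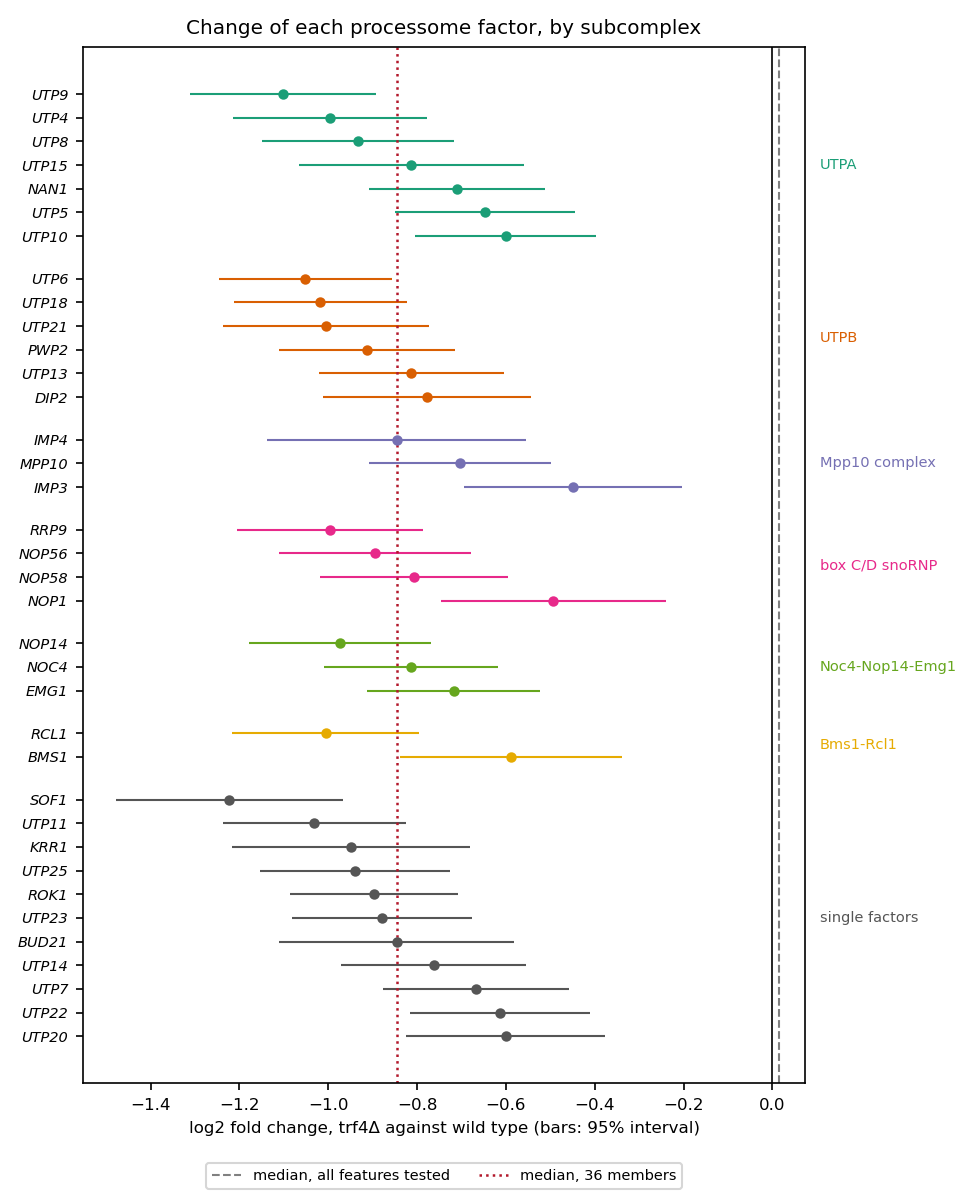
Log2 fold change of each member in trf4Δ against the wild type with its 95% interval, grouped by subcomplex, with the median of all features tested (dashed, 0.01) and of the 36 members (dotted, -0.85). Every interval lies below 0, and the members range from -1.22 (SOF1) to -0.45 (IMP3).

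The box C/D snoRNP proteins coat the U3 snoRNA, and the core proteins also coat the snoRNAs that guide methylation. All 4 genes on the list were lower, with a median of -0.85. RRP9 (YPR137W), whose protein is found on U3 and on no other box C/D snoRNA, had 9231 and 8277 counts in trf4Δ, below the wild type at 14741 and 14909. Its change was the largest of the group, at -0.996 (SE 0.09). NOP56 (YLR197W) and NOP58 (YOR310C) encode the paired scaffold proteins. NOP56 had wild-type counts of 25103 and 22799 and trf4Δ counts of 15494 and 14854, a change of -0.89. NOP58 had 36470 and 34118 wild-type counts, which became 24103 and 23402 in trf4Δ, a change of -0.81. NOP1 (YDL014W), the methyltransferase known as fibrillarin in animals, had 37804 and 33745 counts in trf4Δ, below the wild type at 45395 and 40130, a change of only -0.49 (SE 0.11). The interval of NOP1, -0.75 to -0.24, did not overlap that of RRP9, -1.21 to -0.79. The NOP1 call was lost with total-count scaling (-0.17) and without the first wild-type library (-0.39, adjusted p = 0.0614 by edgeR's quasi-likelihood test), and its direction turned under abundance-dependent scaling (0.04).

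Noc4, Nop14 and Emg1 act together on the 3′ part of the 18S sequence, where Emg1 methylates a modified base. NOP14 (YDL148C) had wild-type counts of 28902 and 31169 and trf4Δ counts of 18143 and 17871, a log2 fold change of -0.97. NOC4 (YPR144C) had 10009 and 9605 wild-type counts, which became 6468 and 6665 in trf4Δ, a change of -0.81. EMG1 (YLR186W) had 6533 and 6370 counts in trf4Δ, below the wild type at 8790 and 9233, a change of -0.72. In all 3 the groups stood well apart, and the median was -0.81. Bms1 is a GTPase and Rcl1 is its partner. RCL1 (YOL010W) had wild-type counts of 7951 and 8791 and trf4Δ counts of 4983 and 4835, a change of -1.01 (SE 0.09). BMS1 (YPL217C) had 33777 and 28935 wild-type counts, which became 23737 and 25366 in trf4Δ, a smaller change of -0.59 (SE 0.11), which missed the threshold with total-count scaling (-0.27). Their intervals, -1.22 to -0.79 for RCL1 and -0.84 to -0.34 for BMS1, overlapped.

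The remaining 11 factors are not assigned to a subcomplex here. They had a median of -0.88, and all 11 were lower. SOF1 (YLL011W), a WD-repeat protein gene, had 11301 and 13312 counts in trf4Δ, below the wild type at 23103 and 25695. Its change was the largest of the 36 members, at -1.22 (SE 0.11), a 2.33-fold lower level. UTP11 (YKL099C) had wild-type counts of 8856 and 9719 and trf4Δ counts of 5339 and 5359, a change of -1.03. KRR1 (YCL059C), whose protein has an RNA-binding KH domain, had 16657 and 19054 wild-type counts, which became 9925 and 11856 in trf4Δ, a change of -0.95. UTP25 (YIL091C), which encodes a helicase-like protein, had 11204 and 12522 counts in trf4Δ, below the wild type at 19401 and 19247, a change of -0.94.

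ROK1 and UTP23 encode factors that release the snR30 snoRNA from the precursor, a DEAD-box helicase and a PIN-domain-like protein. ROK1 (YGL171W) had wild-type counts of 15403 and 15774 and trf4Δ counts of 9947 and 9754, a change of -0.90. UTP23 (YOR004W) had 10364 and 9912 wild-type counts, which became 6288 and 6698 in trf4Δ, a change of -0.88. The changes of this functional pair differed by less than either SE (0.08 and 0.09). BUD21 (YOR078W), also called UTP16, had 6426 and 7319 counts in trf4Δ, below the wild type at 9567 and 11421, a change of -0.85 (SE 0.11). UTP14 (YML093W), whose protein activates the helicase Dhr1, had wild-type counts of 33328 and 31203 and trf4Δ counts of 22364 and 22433, a change of -0.76. UTP7 (YER082C), a WD-repeat protein gene, had 15949 and 17211 wild-type counts, which became 11791 and 12783 in trf4Δ, a change of -0.67. In all 5 of these genes both trf4Δ libraries lay below both wild-type libraries.

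UTP22 (YGR090W), a subunit of the UTPC complex, had 24290 and 23074 counts in trf4Δ, below the wild type at 30547 and 30984, a change of -0.61. UTP20 (YBL004W), the longest of the 36 genes and one of the largest yeast proteins, had wild-type counts of 58058 and 62769 and trf4Δ counts of 45933 and 47911, a change of -0.60 (SE 0.10). With UTP10 and BMS1 these were the 4 members over 3 kb, a grouping made after the values were seen. All 4 changed by between -0.61 and -0.59, while the 32 shorter members had a median of -0.89, and only NOP1 and IMP3 among them fell less. Across all 36 members the relation to length was weak, with Pearson's r of 0.16 and Spearman's rho of 0.22 between log2 length and log2 fold change. This is a description across genes that share the same 4 libraries.

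The spread among members was larger than their errors. The log2 fold changes had an SD of 0.18 over the 36 genes, against a median SE of 0.09. Between subcomplexes the medians spanned only -0.96 (UTPB) to -0.70 (Mpp10 complex), and the ranges of all 7 groups overlapped. Values from -0.85 to -0.78 lay inside the range of every group.

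Levels between genes were compared per kilobase of coding length, as mean CPM (counts scaled to the TMM-adjusted library size) per kb. In the wild type they ran from 116 for NOC4 to 850 for NOP1, with NOP58 next at 449 and KRR1 at 367. The 7 UTPA genes lay between 145 and 268 CPM per kb, and the 6 UTPB genes between 150 and 261. In trf4Δ, NOP1 stood at 604 CPM per kb, NOP58 at 257 and KRR1 at 190, and NOC4 was again the lowest at 65.8.

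Across the 5859 protein-coding genes tested, log2 fold changes followed abundance (Spearman's rho of -0.54 with log2 mean CPM, a description across genes of the same 4 libraries). Members were therefore set beside features in their range of level. Within the 36 members alone rho was 0.34, of the opposite sign. Among the 2976 other features with a mean level between those of the lowest and highest member (57.9 to 980 CPM), 44.5% were called lower and the median log2 fold change was -0.21. Their median level was 130 CPM, against 316 CPM for the members, so they were matched in range only. When all features were divided into 10 groups by mean level, 35 of the 36 members lay below the median of their own group, by a median of 0.47 on the log2 scale. NOP1 was the exception, at 0.03 above it. In the highest of the 10 groups, which held NOP1, the median was itself -0.53. There UTP10 (by -0.07), UTP20 (by -0.07), BMS1 (by -0.06) and UTP22 (by -0.09) differed from it by less than their SE. All 36 members ranked among the lowest 25% of log2 fold changes, and 29 among the lowest 10%. Scaling designed to remove a trend with abundance (cyclic loess, tested with limma) kept 31 of the 36 calls, with a median of -0.54. Under it UTP10 (-0.08), BMS1 (-0.12), UTP20 (-0.0096) and UTP22 (-0.15) were no longer called, nor was NOP1. These are members of high total count, and UTP10, BMS1, UTP20 and UTP22 are also the members over 3 kb. Other members of similar level kept their calls, such as UTP21 (552 CPM, -0.53) and UTP14 (502 CPM, -0.30). BMS1 stood at 511 CPM and UTP22 at 498 CPM. The part that abundance or length plays in their change was not tested.

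**Figure D3:**
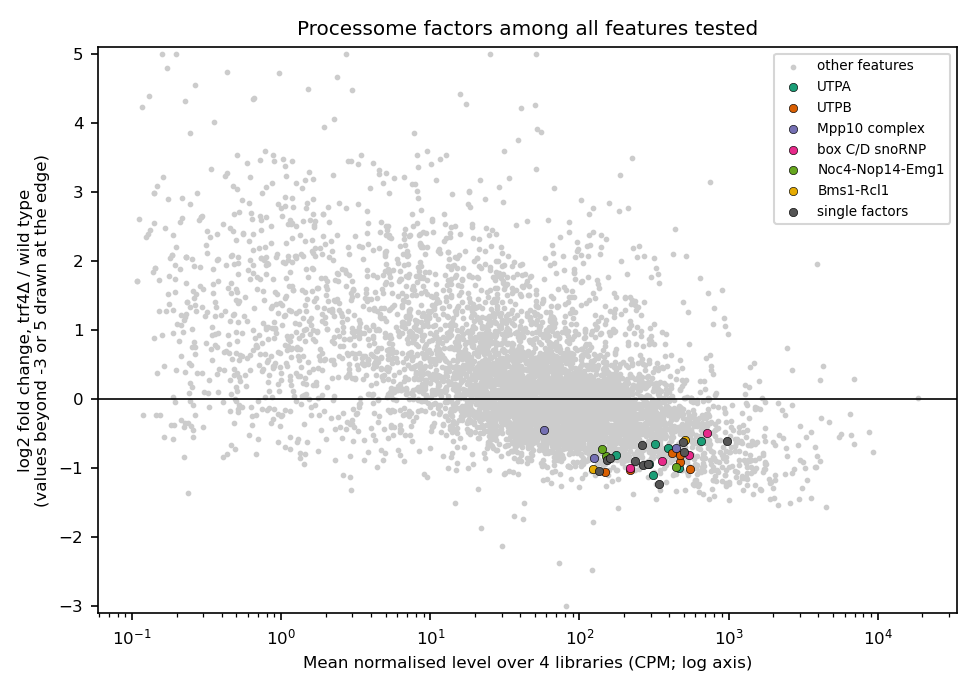
Log2 fold change against mean normalised level over the 4 libraries (CPM, log axis) for all 6372 features tested, with other features in grey and the 36 members coloured by subcomplex. The members lie in the lower part of the cloud, between -1.22 and -0.45, at levels from 57.9 to 980 CPM.

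The promoters were examined because the members moved together. The 300 bases before each start codon were read from RefSeq R64 (sacCer3, the build named in the submitters' processing notes), and all 36 RefSeq genes began with ATG. PAC was searched as GATGAG, and RRPE as AAAATTTT or AAAAATTT, on both strands, with overlapping matches of a motif counted once. PAC was found before 32 of the 36 members (88.9%), against 19.1% of the 6020 protein-coding genes with a full window. RRPE was found before 33 members (91.7%), against 17.0% of all. Both were found before 31 members (86.1%), against 6.28% of all genes. Holding both was not particular to the members, since most of the related lists described below had similar shares. Both motifs lay before 81.8% of 33 other processome factors and 84.9% of 53 assembly factors of the 60S subunit. The shares were 87.5% of 8 polymerase I genes and 100% of 4 box H/ACA genes. The sequence is that of the reference strain S288C and not of W303, and a match is a description and not a site.

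Below are stretches from 10 bases before the outermost match to 10 bases after it, on the strand of the gene, for the 6 genes with the smallest adjusted p among UTPB, Mpp10 complex and box C/D members that hold both motifs. They show how close the motifs lie, with PAC and RRPE matches in capitals (GATGAG or its reverse complement CTCATC for PAC, runs of A followed by T for RRPE).
UTP6: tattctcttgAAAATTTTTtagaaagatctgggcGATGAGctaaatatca
UTP18: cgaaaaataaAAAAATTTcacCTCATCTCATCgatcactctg
PWP2: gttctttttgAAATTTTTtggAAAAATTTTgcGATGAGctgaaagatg
UTP21: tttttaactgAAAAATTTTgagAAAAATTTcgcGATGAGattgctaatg
NOP56: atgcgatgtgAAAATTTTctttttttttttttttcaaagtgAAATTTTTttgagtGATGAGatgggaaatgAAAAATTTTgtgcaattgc
UTP13: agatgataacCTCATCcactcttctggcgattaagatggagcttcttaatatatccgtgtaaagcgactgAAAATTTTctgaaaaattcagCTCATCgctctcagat

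The UTP6 stretch lies at chrIV:1358992-1359041 (minus strand), that of UTP18 at chrX:312761-312802 (minus), that of PWP2 at chrIII:223357-223404 (minus) and that of UTP21 at chrXII:937329-937377 (minus). The NOP56 stretch lies at chrXII:545915-546004 (plus) and that of UTP13 at chrXII:581849-581955 (minus). In UTP6, UTP18, PWP2 and UTP21 the RRPE matches preceded PAC on the strand of the gene, and the nearest one began 11 to 24 bases before it. NOP56 had RRPE matches on both sides of PAC, and UTP13 had a PAC match on either side of its RRPE match.

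This spacing was common to the members. The median start of a PAC match was 111 bases before the start codon, and that of an RRPE match 129 bases before it. Of the members' PAC matches, 73.2% began 200 to 80 bases before the start codon, against 49.6% of the PAC matches of all genes. For RRPE the shares were 86.3% and 62.4%. In 29 of the 31 members with both motifs, an RRPE match began within 50 bases before the PAC match nearest to the start codon. The exceptions were DIP2 and UTP5.

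**Figure D4:**
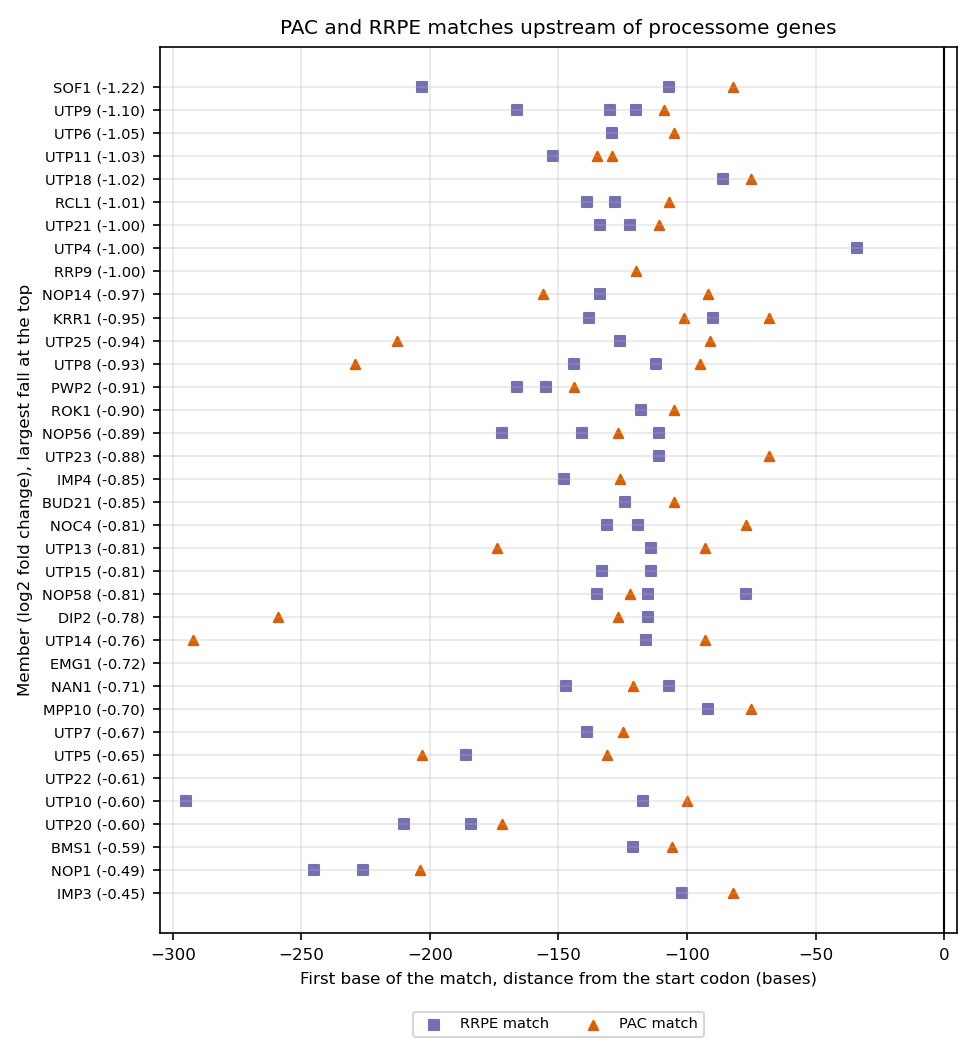
Position of PAC (orange triangles) and RRPE (purple squares) matches before the start codon of each member, in bases, with members ordered from the largest fall (SOF1, -1.22) to the smallest (IMP3, -0.45) and the log2 fold change beside each name. Most matches lie between 200 and 80 bases before the start codon, and EMG1 and UTP22 have none.

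Members with and without both motifs overlapped in how far they fell. The 31 members with both motifs ranged from -1.22 to -0.45. The 5 without both were UTP4 (RRPE alone, -0.997), RRP9 (PAC alone, -0.996), UTP15 (RRPE alone, -0.81), EMG1 (neither, -0.72) and UTP22 (neither, -0.61), all inside that range. So wide a range would hold most sets of 5 members, so this is only a description. UTP4 and RRP9 fell more than the members' median of -0.85, and UTP15, EMG1 and UTP22 fell less. Across the genome, 260 tested genes with both motifs that are on none of the lists used here had a median log2 fold change of -0.50. The medians were -0.03 for 700 such genes with PAC alone, -0.16 for 616 with RRPE alone and 0.07 for 4087 with neither. These classes were not matched for level, and whether the motifs play a part was not tested. The ribosomal protein genes of the small subunit, which also fell, had both motifs before 0 of 56 genes.

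Genes next to the members showed no common direction. All 36 members have 1 coding exon and overlap no other RefSeq gene, and they lie on 14 chromosomes. Features of the count table without a RefSeq match were not searched, either for overlaps or as neighbours. Of the 33 upstream neighbours that could be tested, 10 were called lower, 9 higher and 14 neither. Over all features tested the shares were 28.9% lower and 31.3% higher. The neighbour counts lay near these shares and so show nothing particular to the neighbours. UTP23 (-0.88) follows YSP3, a protease gene that was higher by 1.41. RCL1 (-1.01) follows PLB3, a phospholipase gene that was higher by 0.80, and SOF1 (-1.22) follows YEH1, a steryl ester hydrolase gene that was higher by 0.72. Other neighbours on the same strand were lower, such as RPL37A (-1.06) before EMG1 and PWP1 (-0.60) before NOP56. Among 20 tested neighbours on the same strand, 6 were called higher and 4 lower, with a median of 0.07. UTP5, which shares its upstream region with the divergent gene NCB2, fell by 0.65 while NCB2 rose by 1.01. Among 13 divergent neighbours tested, 6 were called lower and 3 higher, with a median of -0.22. UTP6 faces RPS18A (-1.29), 1 gene of a near-identical pair, and NOP1 faces TSC13 (-0.56).

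Other processome factors outside the 36 were taken from a list of 33 genes. Of these, 31 were called lower and 1 higher, with a median of -0.81, close to that of the members. The largest fall was that of BFR2, from 10717 and 11043 wild-type counts to 5016 and 5761, a log2 fold change of -1.25 (SE 0.10). UTP30, whose protein resembles ribosomal protein L1 and is dispensable for growth, went the other way. It had 4089 and 4234 wild-type counts but 9080 and 11710 in trf4Δ, a change of 1.09 (SE 0.13, adjusted p = 0.000284 in edgeR). FCF1, the gene of the PIN-domain nuclease Utp24, had 4975 and 5070 wild-type counts and 5984 and 4745 in trf4Δ, and was not called, at -0.14 (SE 0.12). Of the 33 genes, 4 had RRPE without PAC in the window searched, namely UTP30, FCF1, RRP7 (-0.72, called lower) and ESF2 (-0.71, called lower). In the lists of related machinery described next, RRN3 (called higher) held both motifs, as did RPA14, GAR1, REA1 and NOP16 (not called). RPS14B (not called) had RRPE alone, and RPA12 (called lower) had neither motif. Whether the motifs play a part in these changes was not tested.

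Genes of the related machinery gave a similar picture with exceptions. Of 53 assembly factors of the large (60S) subunit, 51 were called lower and 0 higher, with a median of -0.82. MRT4 fell most, by 1.23. Of 56 ribosomal protein genes of the small subunit, 55 were called lower and 0 higher, with a median of -1.07, and RPS9B fell most, by 1.56. Many of these are near-identical pairs, so that single values are uncertain. Of 8 genes for RNA polymerase I and its factors, 6 were lower, with RPA12 lowest at -0.84. RRN3, the initiation factor of that polymerase, was the 1 called higher, at 0.29 (adjusted p = 0.0201 by edgeR's quasi-likelihood test), a call that was lost without the first trf4Δ library (0.24) and without either wild-type library (0.33 and 0.27).

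The box H/ACA core proteins are the counterpart of the box C/D proteins on the snoRNAs that guide pseudouridylation. NOP10 was called lower at -0.64 (SE 0.10), NHP2 at -0.52 (SE 0.11) and CBF5, the pseudouridine synthase, at -0.49 (SE 0.09). GAR1 was not called, at -0.36 (SE 0.21), and its wild-type libraries differed, at 21870 and 14678 counts. Without the second wild-type library GAR1 was called lower, at -0.62 (adjusted p = 0.0299 by edgeR's quasi-likelihood test). The calls of NHP2 and CBF5 were lost with total-count scaling, that of NHP2 was lost under abundance-dependent scaling too (-0.29), and CBF5 (0.06) and GAR1 (0.0069) changed sign under abundance-dependent scaling. The median of these 4 genes, -0.50, stood beside -0.85 for the 4 box C/D genes, and the NOP1 value of -0.49 lay within the H/ACA range. The 2 sets are unlike in kind. The 4 box C/D genes include RRP9, whose protein is on U3 alone, and leave out the core protein gene SNU13. That gene is listed with the other processome factors and was called lower, at -0.89. The difference between these groups was not tested.

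**Figure D5:**
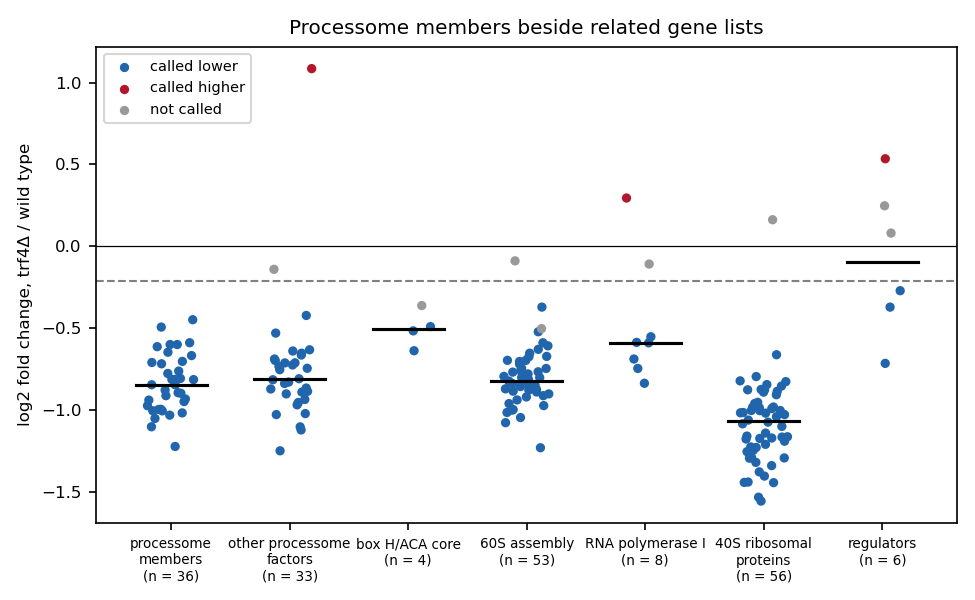
Log2 fold change of each tested gene in the 36 processome members and 6 related lists (blue, called lower; red, called higher; grey, not called; horizontal bar, median), with the median of other features in the members' range of levels (dashed, -0.21). All 36 members are blue, with a median of -0.85, and UTP30 stands alone at 1.09 among the other processome factors. The features behind the dashed line had a lower median level (130 CPM) than the members (316 CPM).

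Regulators of the ribosome biogenesis regulon showed no common direction. Dot6 and Tod6 are related repressors that bind PAC. DOT6 was higher, at 11929 and 9467 trf4Δ counts and 6000 and 6545 wild-type counts, a change of 0.53 (SE 0.12). TOD6 was lower, at 8404 and 9886 trf4Δ counts and 11278 and 14236 wild-type counts, a change of -0.72 (SE 0.13). STB3, whose protein binds RRPE, changed by 0.25 (SE 0.13) and SFP1, an activator of the regulon, by 0.08 (SE 0.09), and neither was called, although both were called higher with total-count scaling, and STB3 also without the second wild-type library (0.44). MRS6, whose protein binds Sfp1, was called lower at -0.37 and lost its call with total-count scaling (-0.05), with abundance-dependent scaling (-0.11) and without the first wild-type library (-0.31). SCH9, a kinase downstream of TORC1, was called lower at -0.27. That call was lost under abundance-dependent scaling and without either trf4Δ library or the second wild-type library (-0.18), and with total-count scaling the value was 0.05. These are mRNA levels and say nothing of the activity of the proteins.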

How the data were processed

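RNA sequencing counts of 4 yeast libraries were analysed, 2 of trf4Δ and 2 of the wild type. The authors deposited whole-number counts per feature with no normalisation. The submitters' processing notes name STAR 2.5.3 and the build sacCer3, while the counting program, its annotation and the strand setting are not given in the sources used here. The paper supplied with the series describes other samples, so a standard count design was used. Of 7445 feature IDs, 6048 matched RefSeq R64, which gave symbols, coordinates and sequence.

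Counts were fitted in R 4.3.3 with edgeR 4.0.16 (filterByExpr, TMM scaling, glmQLFit and glmQLFTest, two-sided, no covariates), with Benjamini-Hochberg adjustment over the 6372 features kept and a threshold of 0.05. Each SE was derived from the F statistic (the absolute log2 fold change over the root of F). The depth of 53516242 to 57964567 counts per library leaves counting error small for every member, so that the spread between libraries sets the precision. The fit was also run on counts simulated from its own model and dispersions. Such a run cannot show whether the spread between the libraries of a group is that of separate cultures.

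All 36 members were named, and from the comparison lists the largest called change in each direction, every regulator and every box H/ACA protein. FCF1, RRP7, ESF2, SNU13, RPA14, REA1, NOP16, RPS14B, genes next to members and the genes over 3 kb were chosen after their values were seen. The members and lists were chosen with earlier results of these data known. Alternatives were size factors of the DESeq2 type, library size alone, TMM from nuclear ORFs, cyclic loess scaling with limma 3.58.1, DESeq2 1.42.0, a robust fit, a filter of at least 10 counts in every library or none, an adjusted p under 0.01, and leaving out each library.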

Additional observations from a re-analysis of the deposited data

How the results depend on the processing

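With total-count scaling (library size alone) the median over all features tested moved from 0.01 to 0.34, and with abundance-dependent scaling (cyclic loess, limma) it was -0.0203. Taken relative to that median, the members' median was -0.86 with total-count scaling and -0.52 with cyclic loess scaling. Under these respective settings 33 and 31 of the 36 members were called lower, 0 and 0 were at least 2-fold lower and the members' median was -0.52 and -0.54. Both settings called fewer of all features lower than TMM scaling did. Total-count scaling called more of all features higher than TMM scaling did, and cyclic loess scaling called fewer. The respective subcomplex medians were -0.49 and -0.56 for UTPA, -0.64 and -0.50 for UTPB, -0.38 and -0.42 for the Mpp10 complex, -0.53 and -0.42 for box C/D, -0.49 and -0.54 for Noc4, Nop14 and Emg1, -0.48 and -0.48 for Bms1 and Rcl1, and -0.56 and -0.62 for the single factors. Box H/ACA genes called lower numbered 1 and 1, regulators called lower 1 and 1, and ribosomal protein genes called higher 1 and 1. Total-count scaling called 3 regulators higher and gave SCH9 a value of 0.051. Cyclic loess scaling called 1 gene for 60S assembly higher and turned NOP1 (0.041), CBF5 (0.057) and GAR1 (0.0069). The cause of these changes was not tested. Requiring at least 10 counts in every library left 4 members at least 2-fold lower, and an adjusted p under 0.01 left 0 genes of the polymerase I list called higher.

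Leaving out each library in turn kept 35 to 36 members called lower. It gave 5 to 8 at least 2-fold lower, a members' median of -0.87 to -0.82, a UTPA median of -0.87 to -0.70, 0 to 1 polymerase I genes called higher and 1 to 2 regulators called higher. The lone library of a group is then assumed to vary like the other group. The other scalings, filters and fits, DESeq2 included, kept all 36 members called lower. No paired analysis was possible because the labels give no replicate numbers that the groups share. With 2 libraries a group, an exact permutation test of 1 value cannot go below p = 0.333.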
